A study of Mus musculus with 10 samples.

Results

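Prox1 and 8 other transcription factor genes that set or alter the identity of colon epithelium (Sox4, Sox9, Cdx1, Cdx2, Hnf4a, Klf4, Klf5 and Gata6) were examined in laser-dissected colon tumours of mice. Every probe set annotated to 1 of these 9 genes alone was taken, which gave 29 of the 45101 probe sets of the array. Of these, 25 lay at or above the level filter used for testing (a mean over the 10 arrays of at least 5.82 log2, the 40th percentile of all probe sets), and 4 lay under it. The KO group held 5 tumours from 3 mice of the genotype vil-Cre-Bcl9-/-/Bcl9l-/-, in which Cre driven by villin sequences, active in gut epithelium, goes with loss of Bcl9 and Bcl9l, co-factors of beta-catenin. The WT group held 5 tumours from 2 mice labelled wildtype, and whether these carried Cre is not stated in the labels. All mice were of a mixed background (129SvEv/C57BL/6/DBA/2), and at 6 to 8 weeks of age received dimethylhydrazine (44 mg/kg), a precursor of the carcinogen azoxymethane, and then 2% dextran sulfate sodium for 7 days. KO tumours 11 and 9 came from mouse 04, KO tumours 2 and 6 from mouse 02 and KO tumour 7 from mouse 99. WT tumours 1, 12, 13 and 3 came from mouse 72 and WT tumour 8 from mouse 82.

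As background, Cdx1 and Cdx2 are caudal-type homeobox factors that specify the intestine and keep its epithelium from taking on foregut or gastric features, and Hnf4a is a nuclear receptor that, with Cdx2, maintains genes of differentiated enterocytes and colonocytes. Gata6 acts in the gut endoderm and in the crypt, Klf5 in dividing crypt cells and Klf4 in surface and goblet cells. Sox9 marks crypt progenitors and is itself a Wnt target. Sox4 belongs to the SoxC group and is raised in many tumours. Prox1 is a homeobox factor best known for specifying lymphatic endothelium. In colon tumours it is a described target of beta-catenin and TCF, while healthy colon epithelium holds it mainly in scattered secretory cells.

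The values are log2 signals made by the authors with RMA, in which 1 unit is a doubling, and their medians ranged from 6.43 to 6.50 over the arrays. Signals of different probe sets are not comparable with each other, so each was compared between tumours only. Sample numbers fell into the ranges 191 to 229 (1 KO and 4 WT tumours) and 254 to 258 (4 KO tumours and WT tumour 1), and differences within each range are given beside the main ones. The mean correlation of an array with the others was lowest for WT tumour 1 (0.964), against 0.970 to 0.976 for the rest. Of the 5 probe sets of Bcl9 and Bcl9l, 4 were tested and none passed, and these 4 had higher means in KO, by 0.13 to 0.32 log2 (limma, adjusted p = 0.240 to 0.650). The labels do not place them inside or outside the deleted stretch, so they do not check the genotypes. Epithelial markers (Epcam, Cdh1, Krt8, Krt18, Krt19 and Cldn7) were all tested and 0 of 6 passed, with 1 at an unadjusted p under 0.05 (limma). Their mean level was 12.97 to 13.14 log2 in KO and 12.63 to 13.12 log2 in WT tumours, so the tissue of both groups carried the epithelial genes.

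Of the 25 tested probe sets of the 9 genes, 4 were lower and 1 was higher in KO tumours and 20 did not pass (limma with the mouse as a random block, Benjamini-Hochberg over all 27001 probe sets tested, adjusted p below 0.05). Among all probe sets tested, 5.73% passed, 3.21% higher and 2.52% lower in KO. An unadjusted p under 0.05 (limma) was found for 5594 of the 27001, the background for every such count given for a gene or list. The calls among the members were all 3 probe sets of Prox1, 1 of 6 tested for Sox4 and 1 of 3 for Klf5. The tested probe sets of Sox9, Cdx1, Cdx2, Hnf4a, Klf4 and Gata6 did not pass. With 1 probe set per gene, 2 of the 9 members passed (Prox1 and Klf5), against 7.09% of 12250 genes. The groups did not overlap in 8 of the 25, against 8.39% of all probe sets tested. These 8 came from Prox1 (3), Sox4 (3) and Klf5 (2). Probe sets of 1 gene share its transcripts, so neither this count nor the medians that follow rest on independent readings. The median difference was 0.02 log2 over the members and 0.01 log2 over all probe sets, a measure in which rises and falls offset each other. Without regard to sign, the median difference was 0.48 log2 over the members and 0.18 log2 over all probe sets tested. The arrays measure dissected tissue, so fewer cells of a type and less RNA per cell cannot be told apart. The plot of differences shows Prox1 apart from the other 8 genes, which all lay within 1 log2 of zero.

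**Figure D1:**
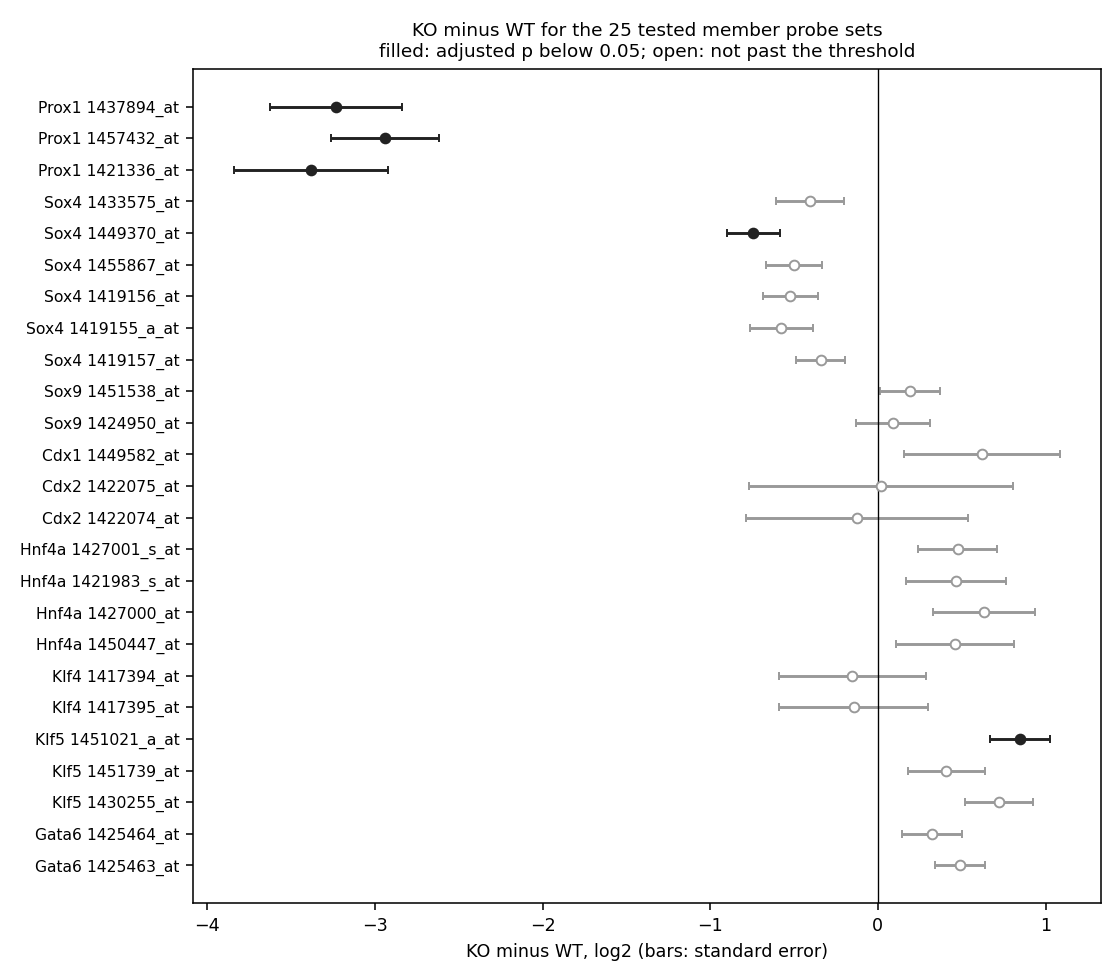
KO minus WT difference in log2 signal (x axis) for each of the 25 tested probe sets (y axis), with the standard error as a bar; filled points passed the adjusted p threshold of 0.05. The 3 Prox1 probe sets lie between -3.38 and -2.94, and the other 22 lie between -0.74 and 0.85.

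Prox1 was the gene with the largest difference of the 9, and its promoter windows are shown because it is the member whose probe sets all fell. The RefSeq table (GRCm38.p6) lists 2 starts for it, both on the minus strand of chromosome 1, and the 250 bases before each are given 5′ to 3′, with capitals marking CTTTG or its reverse complement CAAAG, the core shared by the TCF and LEF letters searched.
Prox1 window 1 (chr1:190170828-190171077): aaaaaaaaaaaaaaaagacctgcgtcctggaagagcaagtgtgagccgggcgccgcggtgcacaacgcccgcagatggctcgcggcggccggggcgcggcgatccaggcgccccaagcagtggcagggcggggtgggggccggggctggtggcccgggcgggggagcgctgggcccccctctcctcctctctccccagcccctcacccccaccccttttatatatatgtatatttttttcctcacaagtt
Prox1 window 2 (chr1:190169516-190169765): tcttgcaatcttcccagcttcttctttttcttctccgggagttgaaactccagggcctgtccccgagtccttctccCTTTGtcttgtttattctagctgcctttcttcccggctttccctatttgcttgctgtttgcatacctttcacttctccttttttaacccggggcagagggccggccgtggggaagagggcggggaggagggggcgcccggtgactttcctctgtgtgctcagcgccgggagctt
Window 1 held no CTTTG core and window 2 held 1, beginning 174 bases before its start. A core of this kind occurs in 48.6% of all 32851 windows of this length. The longer letters CTTTGAT and CTTTGTT, searched on both strands, were in neither Prox1 window nor in the other 5 windows listed for the members (Sox4, Cdx2, Klf4 and 2 for Hnf4a). They occur in 3.21% and 5.03% of all windows. No match says only that these letters are not in these windows.

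Prox1 was lower in every KO tumour than in every WT tumour at all 3 of its probe sets. Probe set 1437894_at read 9.51, 8.40, 8.02, 7.40 and 8.72 log2 in KO tumours 11, 2, 6, 7 and 9, against 12.31, 10.99, 11.92, 11.22 and 11.68 log2 in WT tumours 1, 12, 13, 3 and 8. The highest KO tumour, number 11 of mouse 04, lay 1.49 log2 under the lowest WT tumour, number 12 of mouse 72. The means were 8.41 ± 0.79 in KO and 11.62 ± 0.53 in WT (SD, n = 5 tumours each), a difference of -3.23 ± 0.39 log2 (SE) or a 9.40-fold lower level (limma, adjusted p = 0.00116).

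Probe set 1457432_at gave 8.78, 8.17, 7.90, 7.50 and 8.20 log2 in the same KO tumours, against 11.86, 10.44, 11.30, 10.50 and 11.09 log2 in the WT tumours. Its difference was -2.94 ± 0.32 log2, a 7.67-fold lower level in KO (limma, adjusted p = 0.000632). Probe set 1421336_at gave 7.67, 7.11, 6.48, 5.68 and 7.12 log2 in KO, against 11.37, 9.47, 10.45, 9.45 and 10.13 log2 in WT. Here the groups were furthest apart, by -3.38 ± 0.46 log2 or 10.4-fold (limma, adjusted p = 0.00208). The 3 probe sets ranked the KO tumours alike, with tumour 11 highest and tumour 7, the only tumour of mouse 99, lowest at each.

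The separation held for the animals as well as for the tumours. At probe set 1437894_at the mouse means were 9.11, 8.21 and 7.40 log2 for KO mice 04, 02 and 99, against 11.61 and 11.68 log2 for WT mice 72 and 82. The WT mice differed by less than the 4 tumours of mouse 72 differed among themselves (a range of 1.32 log2), while the KO mice spread over a wider interval. With 1 mean per mouse all 3 Prox1 probe sets passed. Within the lower number range the difference at this probe set was -4.05 log2, with KO tumour 7 alone on the KO side, and within the upper range -3.65 log2, with WT tumour 1 alone on the WT side. Without mouse 72 only 1 WT tumour remains, and then 1437894_at and 1421336_at did not pass (-3.32 and -3.37 log2, adjusted p = 0.0570 and 0.0507), and in the lower range alone 1457432_at did not (-3.33 log2, adjusted p = 0.0611). Over all 28 alternatives the Prox1 differences lay between -4.28 and -2.75 log2.

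**Figure D2:**
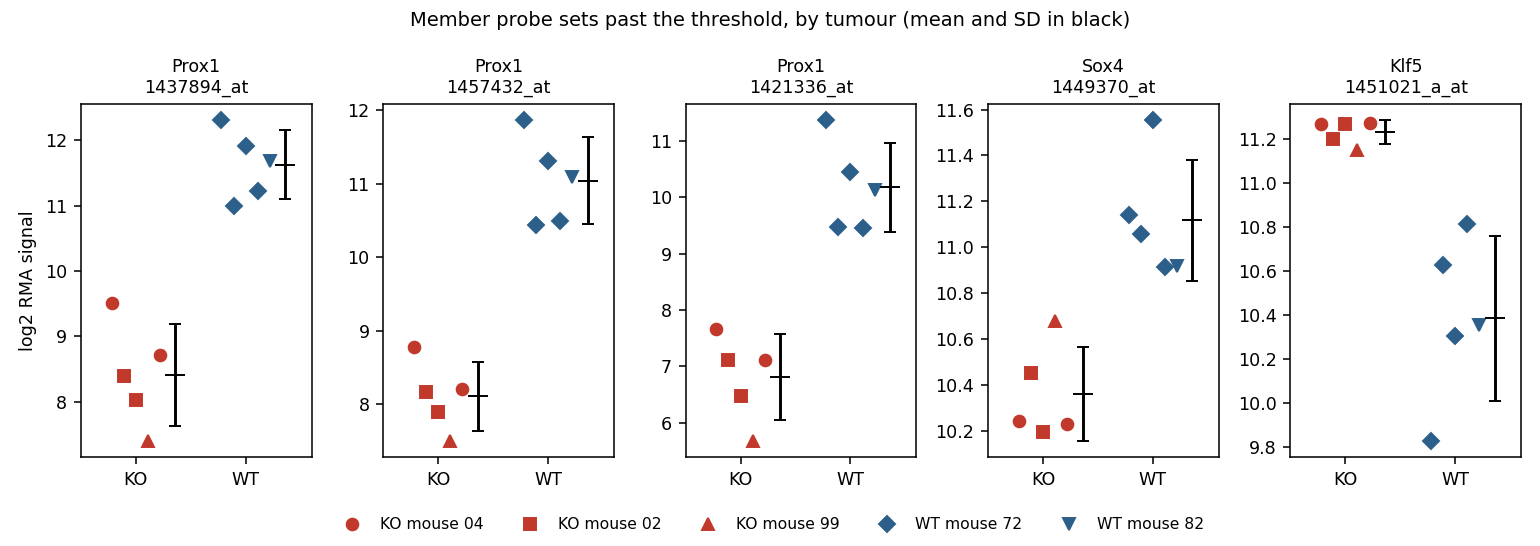
Log2 RMA signal (y axes, each with its own scale) of the 5 member probe sets that passed, for KO and WT tumours, with marker shapes for mice and the mean and SD in black. Each panel shows no overlap between the genotypes, and the gap is widest for Prox1.

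Markers of other cells that carry Prox1 were read beside it. Of 6 lymphatic endothelial markers (Lyve1, Flt4, Pdpn, Ccl21a, Reln and Mmrn1), 5 had a probe set of their own, 3 were tested and 0 passed, none with an unadjusted p under 0.05 (limma). Reln and Mmrn1 lay under the level filter. The summed signal of the 5 was 8.53 to 10.02 log2 in KO and 8.64 to 9.97 log2 in WT tumours, so the groups overlapped. Flt4, the receptor of lymphatic growth factors, was at 6.83 ± 0.57 in KO and 7.13 ± 0.50 log2 in WT (SD, n = 5 each), and Pdpn, podoplanin, at 8.58 ± 0.77 and 8.25 ± 0.85 log2. Of 7 enteroendocrine markers, 3 were tested and 0 passed, 2 of them with an unadjusted p under 0.05 (limma). The chromogranin genes Chga and Chgb were at 8.42 ± 0.94 and 10.23 ± 1.01 log2 in KO, against 7.14 ± 0.73 and 7.74 ± 2.13 log2 in WT. Neurod1, Neurog3, Tph1 and Gcg lay under the filter. The summed enteroendocrine signal was 10.25 to 12.59 log2 in KO and 8.50 to 11.08 log2 in WT tumours. All 4 tuft cell markers (Trpm5, Dclk1, Pou2f3 and Gfi1b) lay under the filter, with a summed signal of 6.73 to 8.12 log2 in KO and 6.64 to 6.86 log2 in WT tumours. The part of these cells in the Prox1 difference was not tested.

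Sox4 had 8 probe sets, of which 6 were tested, and all 6 had lower means in KO, by 0.34 to 0.74 log2. Only 1449370_at passed. It read 10.24, 10.45, 10.20, 10.68 and 10.23 log2 in KO tumours 11, 2, 6, 7 and 9, against 11.14, 11.06, 11.55, 10.91 and 10.92 log2 in WT tumours 1, 12, 13, 3 and 8. The difference was -0.74 ± 0.16 log2 (SE), a 1.67-fold lower level (limma, adjusted p = 0.0210), and the groups did not overlap. Probe sets 1455867_at and 1419156_at also showed no overlap, differing by -0.50 ± 0.17 and -0.52 ± 0.16 log2 without passing (limma, adjusted p = 0.111 and 0.0890). The brightest for Sox4, 1433575_at, averaged 10.75 ± 0.22 in KO and 11.16 ± 0.40 log2 in WT, with overlapping groups (adjusted p = 0.292). Of the 6 tested, 5 had an unadjusted p under 0.05 (limma), and they share 1 gene's transcripts. Probe sets 1443778_at and 1458332_x_at stood at 1.80 to 2.15 log2 in KO and 1.83 to 2.22 log2 in WT, under the level filter, and were not tested.

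The Sox4 call rested on few mice. At 1449370_at it was lost with 1 mean per mouse (adjusted p = 0.157), with the number range in the model (adjusted p = 0.0897) and without mouse 04, 02 or 72 (adjusted p = 0.0901, 0.0845 and 0.333). It was also lost without KO tumour 6 or WT tumour 1 (adjusted p = 0.0666 and 0.0535) and with the 3′ minus 5′ signal of the array's control genes in the model (adjusted p = 0.0508). The difference was -0.43 log2 within the lower and -0.86 log2 within the upper number range, each with a single tumour in 1 group. With array weights 1455867_at, 1419156_at and 1419155_a_at passed too, all lower in KO (limma, adjusted p = 0.0455, 0.0440 and 0.0406).

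Sox9 did not pass at either tested probe set. At 1451538_at it read 10.61, 10.96, 11.09, 11.02 and 10.85 log2 in KO tumours 11, 2, 6, 7 and 9, against 11.03, 10.83, 10.85, 10.89 and 10.12 log2 in WT tumours 1, 12, 13, 3 and 8. WT tumour 8, the only tumour of mouse 82, was lowest, and the other 9 tumours lay between 10.61 and 11.09. The difference was 0.19 ± 0.18 log2 (limma, adjusted p = 0.601), and at 1424950_at it was 0.09 ± 0.22 log2 (adjusted p = 0.860). The third probe set, 1433889_at, lay under the filter at 4.35 ± 0.11 in KO and 4.29 ± 0.09 log2 in WT.

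Among the caudal factors, neither Cdx1 nor Cdx2 passed, and both spread widely among WT tumours. Cdx2 at 1422075_at read 9.57, 9.96, 10.91, 10.22 and 9.26 log2 in KO tumours 11, 2, 6, 7 and 9, against 8.21, 11.84, 8.43, 11.81 and 9.64 log2 in WT tumours 1, 12, 13, 3 and 8. The WT tumours thus lay both above and below all KO tumours, with a range of 3.63 log2 in WT, all of it within mouse 72, and 1.64 log2 in KO. The means were 9.98 ± 0.63 in KO and 9.98 ± 1.76 log2 in WT (SD, n = 5 each), a difference of 0.02 ± 0.79 log2 (SE, limma, adjusted p = 0.993). Probe set 1422074_at had the same 2 WT tumours, 12 and 3, at the top (8.91 and 8.66 log2) and tumours 13 and 1 at the bottom (5.71 and 6.05 log2). Its KO tumours lay between 6.61 and 7.76 log2 and its difference was -0.12 ± 0.66 log2 (adjusted p = 0.942). The standard errors at Cdx2 were the largest of the tested members, and a difference of the size found for Klf5 would not have been detectable here.

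Cdx1, with a single probe set (1449582_at), read 8.58, 9.13, 9.77, 9.85 and 9.08 log2 in KO tumours 11, 2, 6, 7 and 9, against 7.47, 9.44, 8.42, 9.89 and 8.23 log2 in WT tumours 1, 12, 13, 3 and 8. WT tumours 3 and 12 were within the KO range or just above it, and WT tumours 13, 8 and 1 were under every KO tumour. The difference was 0.62 ± 0.47 log2 (limma, adjusted p = 0.500). It was 0.85 log2 within the lower and 1.67 log2 within the upper number range, where WT tumour 1 stands alone.

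Hnf4a had higher means in KO at all 4 probe sets, by 0.46 to 0.63 log2, and none passed. At the brightest, 1427001_s_at, the KO tumours 11, 2, 6, 7 and 9 read 12.29, 12.26, 12.50, 12.37 and 12.31 log2, against 11.11, 12.37, 11.86, 12.35 and 11.71 log2 in WT tumours 1, 12, 13, 3 and 8. WT tumours 12 and 3 were thus at the KO level and the other 3 WT tumours under it. The difference was 0.48 ± 0.24 log2 (limma, adjusted p = 0.282). Within the upper number range, against WT tumour 1 alone, it was 1.23 log2, and within the lower range 0.30 log2. At 1427000_at these differences were 1.54 and 0.25 log2. The upper values rest on that single WT tumour, the array least correlated with the others. Which side of the threshold a probe set fell on in that range alone is therefore not reported, here or for other genes.

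Klf5 was higher in KO and Klf4 was not called. At 1451021_a_at Klf5 read 11.27, 11.20, 11.27, 11.15 and 11.27 log2 in KO tumours 11, 2, 6, 7 and 9, against 9.83, 10.63, 10.30, 10.81 and 10.36 log2 in WT tumours 1, 12, 13, 3 and 8. The KO tumours lay within 0.12 log2 of each other and 0.34 log2 above the highest WT tumour. The difference was 0.85 ± 0.18 log2 (SE), a 1.80-fold higher level (limma, adjusted p = 0.0198). Probe set 1430255_at did not overlap either, at 10.02 ± 0.13 in KO and 9.31 ± 0.43 log2 in WT, and did not pass (0.72 ± 0.20 log2, adjusted p = 0.0665). The third, 1451739_at, overlapped (0.41 ± 0.23 log2, adjusted p = 0.350). With 1 mean per mouse both 1451021_a_at and 1430255_at passed, and likewise with the number range in the model. The call at 1451021_a_at was lost without mouse 04, 02 or 72 (adjusted p = 0.0785, 0.0808 and 0.0520), without KO tumour 6 (adjusted p = 0.0584) and with the 3′ to 5′ covariate (adjusted p = 0.0514). The difference there was 0.62 log2 within the lower number range, where the call was lost too (adjusted p = 0.522), and 1.42 log2 within the upper.

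Klf4 at 1417394_at read 10.86, 9.85, 10.63, 10.55 and 11.70 log2 in KO tumours 11, 2, 6, 7 and 9, against 9.70, 11.58, 10.36, 10.93 and 11.60 log2 in WT tumours 1, 12, 13, 3 and 8. Both groups covered nearly the same interval. The difference was -0.15 ± 0.44 log2 (limma, adjusted p = 0.885), and at 1417395_at -0.14 ± 0.44 log2 (adjusted p = 0.894). The sign of both turned with the number range as a covariate (0.22 and 0.29 log2).

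Gata6 had higher means in KO at both tested probe sets without passing. At 1425463_at it read 8.66, 9.13, 8.94, 8.97 and 9.23 log2 in KO tumours 11, 2, 6, 7 and 9, against 8.70, 8.45, 8.27, 8.75 and 8.35 log2 in WT tumours 1, 12, 13, 3 and 8. KO tumour 11 lay among the WT tumours and the other 4 above them. The difference was 0.49 ± 0.15 log2 (limma, adjusted p = 0.0858). At 1425464_at it was 0.32 ± 0.18 log2 (adjusted p = 0.344). Probe set 1443081_at lay under the filter, with 5.79 and 6.10 log2 in KO tumours 11 and 9, both of mouse 04, and 4.38 to 5.07 log2 in the other 8 tumours.

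The members differed in how much they varied among tumours of one genotype. The SD among WT tumours exceeded that among KO tumours in 22 of the 25 tested probe sets, against 55.2% of all probe sets tested, and no test was made of this. The median ratio of the WT to the KO SD was 1.80 over the members and 1.08 over all probe sets. The ratio was 6.85 for Klf5 at 1451021_a_at (SD 0.05 in KO and 0.37 log2 in WT) and 5.52 for Hnf4a at 1427001_s_at (0.09 and 0.52). It was 2.80 for Cdx2 at 1422075_at (0.63 and 1.76). For Prox1 the 3 ratios were 0.67, 1.26 and 1.04, and for Gata6 0.99 and 0.97. Probe sets of 1 gene share its transcripts, so these 25 are not independent of each other.

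**Figure D3:**
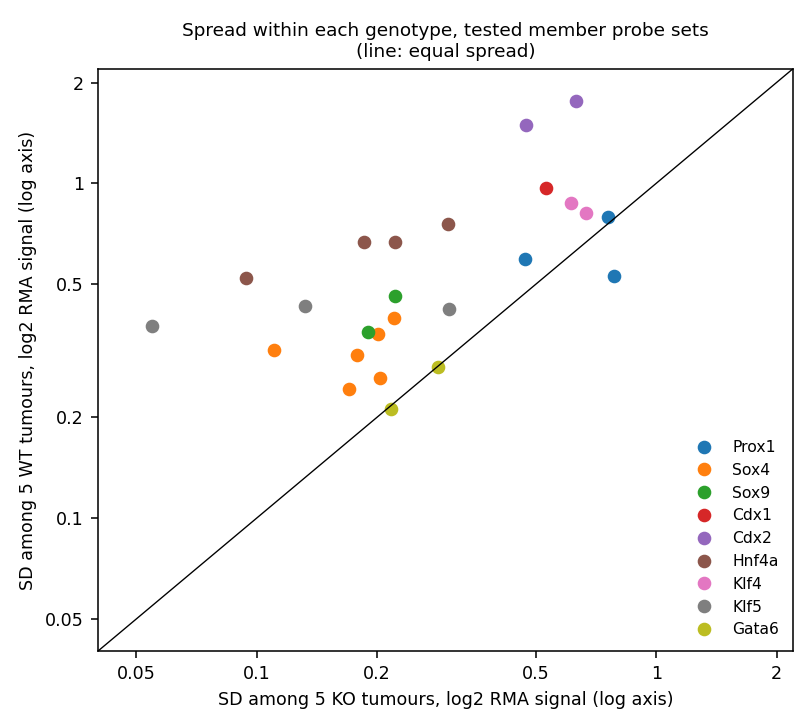
SD of the log2 RMA signal among the 5 KO tumours (x axis) and among the 5 WT tumours (y axis), both on log axes, for the 25 tested probe sets coloured by gene, with the line of equal spread. Most points lie above the line, with Hnf4a and Klf5 furthest from it and Prox1 and Gata6 close to it.

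The WT tumours fell in nearly the same order for several of these genes. From high to low, Prox1 at 1437894_at ran in the order of WT tumours 1, 13, 8, 3 and 12, and Cdx2 at 1422075_at ran in exactly the opposite order. Hnf4a, Cdx1 and Klf5 each had WT tumours 3 and 12 at the top and WT tumour 1 at the bottom. WT tumour 1 therefore combined the highest Prox1 (12.31 log2) with the lowest Cdx1, Cdx2, Hnf4a, Klf4 and Klf5 of all 10 tumours at the probe set with the highest mean of each gene. At the second Cdx2 probe set, 1422074_at, WT tumour 13 was lowest instead (5.71 log2, with tumour 1 at 6.05), so the opposite order held at 1422075_at alone. Among KO tumours Prox1 ran in the order 11, 9, 2, 6 and 7 and Cdx1 in the opposite order. These orders were looked for after the values had been seen.

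Marker levels also differed among the WT tumours. The mean level of the 6 epithelial markers was 12.63, 12.81, 12.87, 13.12 and 13.11 log2 in WT tumours 1, 13, 8, 3 and 12. That of the 6 fibroblast markers (Col1a1, Col1a2, Col3a1, Dcn, Lum and Pdgfra) was 10.39, 10.27, 9.91, 9.28 and 10.09 log2 in the same tumours. WT tumour 1 was lowest for epithelial and highest for fibroblast genes, while tumour 12, last in the order, stood above tumours 8 and 3 for fibroblast genes. Smooth muscle and blood endothelial markers did not follow the order (8.17, 8.17, 8.03, 7.44 and 8.52 log2, and 7.71, 7.59, 7.84, 6.46 and 7.45 log2). Their part in the order was not tested. Among KO tumours the epithelial mean differed by less (12.97 to 13.14 log2).

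With the mean of each genotype taken off, the likeness of the other members to Prox1 was described by Pearson's r over the 10 tumours, which come from 5 mice and so are not independent. It was -0.83 for Cdx1, -0.68 for Cdx2, -0.59 for Hnf4a, -0.42 for Klf5, -0.30 for Sox9, -0.18 for Klf4, -0.18 for Gata6 and 0.58 for Sox4. The 5 genes most like Prox1 by this measure were Casq2 (r = 0.97), Irx4 (0.95), Ppt1 (0.94), Crot (0.94) and Slc38a2 (0.93). They were picked as the highest among the 12250 genes with a tested probe set, Prox1 included, and such a pick by itself favours high r. None of the 5 passed the comparison of KO with WT. Irx4, a homeobox gene, read 8.33, 6.67, 4.86, 4.69 and 6.73 log2 in KO tumours 11, 2, 6, 7 and 9, against 9.11, 5.90, 8.21, 7.37 and 8.39 log2 in WT tumours 1, 12, 13, 3 and 8. Casq2, calsequestrin 2, read 6.18, 5.63, 5.31, 5.18 and 5.69 log2 in KO, against 6.83, 6.03, 6.52, 6.06 and 6.27 log2 in WT.

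**Figure D4:**
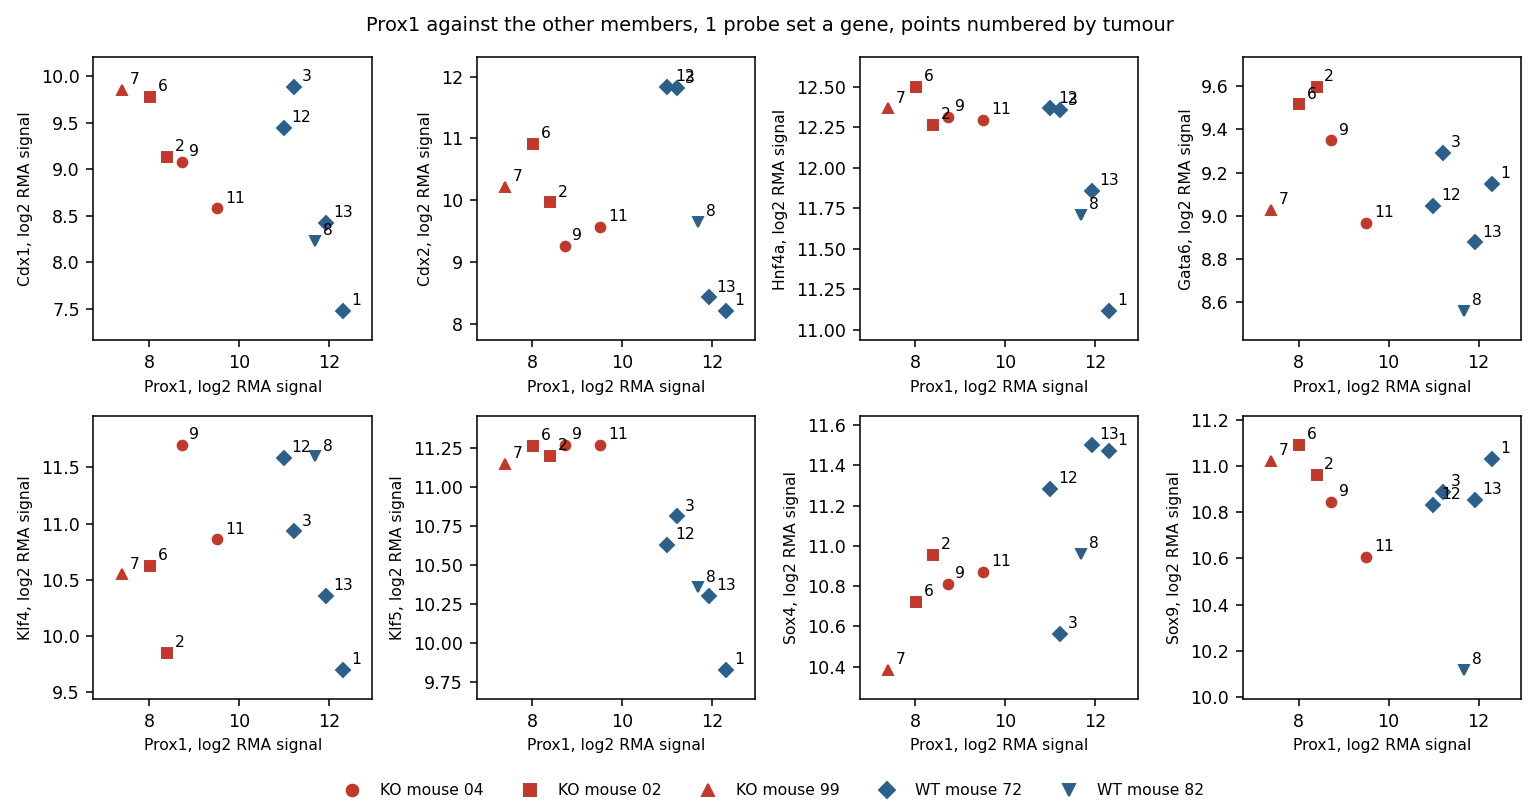
Prox1 (x axes) against each of the other 8 members (y axes), all as log2 RMA signal at the probe set with the highest mean, with points numbered by tumour, coloured by genotype and shaped by mouse. The KO and WT tumours separate along Prox1, and within WT the tumours with more Prox1 have less Cdx2.

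Partners of these factors were read from lists. Of 7 genes of the HNF, FOXA and GATA families with a probe set of their own, 6 were tested, 1 rose and 5 did not pass. The rise was in Hnf4g, the paralogue of Hnf4a in gut epithelium. It read 7.75, 7.43, 8.10, 7.45 and 7.97 log2 in KO tumours 11, 2, 6, 7 and 9, against 6.49, 5.50, 5.87, 7.08 and 6.54 log2 in WT tumours 1, 12, 13, 3 and 8, with no overlap. The difference was 1.43 ± 0.30 log2, a 2.69-fold higher level (limma, adjusted p = 0.0193). It was 1.20 log2 within the lower and 1.32 log2 within the upper number range, each with a single tumour in 1 group. Hnf4g did not pass with the number range in the model (1.24 log2, adjusted p = 0.0857) or without KO tumour 6 (adjusted p = 0.0605). It also did not pass without mouse 04 or 02 (adjusted p = 0.0784 and 0.0665). Without mouse 72, which leaves 1 WT tumour, the difference was 1.18 log2. The median of the 6 was 0.17 log2. Gata4 lay under the filter.

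Of 10 other intestinal regulators, 9 were tested and 0 passed, 2 with an unadjusted p under 0.05 (limma), and their median was 0.25 log2. Those 2 were Vdr, the vitamin D receptor, and Ovol2, a zinc finger factor of epithelia. Vdr read 9.72, 9.72, 10.78, 9.64 and 9.98 log2 in KO tumours 11, 2, 6, 7 and 9, against 6.16, 8.98, 7.57, 8.68 and 8.64 log2 in WT tumours 1, 12, 13, 3 and 8. The groups did not overlap, and the difference was 1.93 ± 0.53 log2 (limma, adjusted p = 0.0590). With 1 mean per mouse Vdr passed (1.67 log2, adjusted p = 0.0445), and with the range as a covariate too (2.53 log2, adjusted p = 0.0376). Without single tumours its adjusted p ran from 0.0343 to 0.156 (limma). The difference was 1.17 log2 within the lower range, with KO tumour 7 alone, and 3.89 log2 within the upper, with WT tumour 1 alone. Ovol2 had a difference of 0.70 ± 0.21 log2 (adjusted p = 0.0856).

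Of 10 other KLF genes, 9 were tested and 0 passed, 2 with an unadjusted p under 0.05 (limma). Their median was -0.03 log2. Klf12 had a difference of -0.92 ± 0.30 log2 (adjusted p = 0.102) and passed with 1 mean per mouse (-1.04 log2, adjusted p = 0.0343). Klf7 had a difference of 0.38 ± 0.15 log2 (adjusted p = 0.176).

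The other SOX genes had a median difference of -0.78 log2 over 9 tested of 12, where 1 fell and 8 did not pass. That median is the value of Sox17 (-0.78 ± 1.14 log2, limma, adjusted p = 0.756), which ran from 5.77 to 11.24 log2 among KO tumours. Sox13 had a higher mean in KO (0.42 log2, adjusted p = 0.316). Both are named after their values were seen. The one that fell was Sox6, a SoxD factor. It read 6.40, 6.24, 6.50, 5.60 and 5.93 log2 in KO tumours 11, 2, 6, 7 and 9, against 8.38, 7.81, 7.51, 7.01 and 7.28 log2 in WT tumours 1, 12, 13, 3 and 8, with no overlap. The difference was -1.46 ± 0.28 log2 (limma, adjusted p = 0.0126), -1.81 log2 within the lower and -2.11 log2 within the upper number range. It did not pass in the lower range alone (adjusted p = 0.135), with 1 mean per mouse (adjusted p = 0.0512) or without mouse 72 (adjusted p = 0.174). The other 3 genes with an unadjusted p under 0.05 (limma) are named after their values were seen. The SoxC genes Sox11 and Sox12, relatives of Sox4, had differences of -1.09 ± 0.39 and -1.09 ± 0.32 log2 (adjusted p = 0.135 and 0.0773). Sox18, a SoxF factor of endothelium that induces Prox1 in lymphatic development, was at 6.24 ± 0.73 in KO and 7.73 ± 0.63 log2 in WT, without overlap (-1.49 ± 0.40 log2, adjusted p = 0.0556). Sox2, a factor of foregut and stomach, lay under the filter and was also singled out after its values were seen. It read 2.37, 2.36, 2.51, 2.55 and 2.63 log2 in KO tumours 11, 2, 6, 7 and 9, against 5.75, 3.57, 3.94, 4.48 and 8.28 log2 in WT tumours 1, 12, 13, 3 and 8. All WT tumours were above all KO tumours, and with no level filter the difference did not pass (adjusted p = 0.0651).

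Genes that CDX, HNF4A or KLF factors are known to act on in gut epithelium gave 1 rise among 11 tested of 14, with 10 that did not pass and a median of 0.57 log2. The rise was in Apob, apolipoprotein B, known as an HNF4A target. It read 9.15, 7.63, 9.05, 7.38 and 8.18 log2 in KO tumours 11, 2, 6, 7 and 9, against 6.15, 6.23, 6.03, 6.28 and 6.67 log2 in WT tumours 1, 12, 13, 3 and 8. The groups did not overlap, and the difference was 1.98 ± 0.35 log2 (limma, adjusted p = 0.00932). It was 1.08 log2 within the lower and 2.36 log2 within the upper number range, each with a single tumour in 1 group. Apob did not pass with 1 mean per mouse (adjusted p = 0.0873). Without mouse 72, which leaves 1 WT tumour, the difference was 1.57 log2. The remaining genes of this paragraph were chosen after their values were seen. Mttp and Apoa4, of the same list as Apob, differed by only 0.05 and -0.07 log2 (limma, adjusted p = 0.908 and 0.759). Vil1, villin, whose regulatory sequences drive the Cre, was at 11.81 ± 0.14 in KO and 11.13 ± 0.44 log2 in WT (SD, n = 5 each), without overlap and without passing (adjusted p = 0.0801). Cdh17, an intestinal cadherin and CDX2 target, was at 10.53 ± 0.18 in KO and 10.55 ± 0.24 log2 in WT. The mucin gene Muc2 read 4.91 log2 in WT tumour 1 and 9.13 to 11.28 log2 in the other WT tumours, against 10.04 to 10.68 log2 in KO tumours.

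Other cell types were read from marker lists beside these results. Immune markers were the only list of the 9 with calls: 3 of 6 tested rose (Cd8a, Cd79a and Cd3g, by 2.70, 1.82 and 1.64 log2), and the mean level of the 8 markers was 7.73 to 7.95 log2 in KO and 6.49 to 7.21 log2 in WT, without overlap. Their summed signal, led by Lyz2, overlapped (12.44 to 12.64 log2 in KO and 12.07 to 13.10 log2 in WT). The other tested immune markers, named after their values were seen, did not pass. Ptprc differed by 0.94, Cd68 by 0.08 and Lyz2 by -0.43 log2 (limma, adjusted p = 0.0742, 0.747 and 0.271). Fibroblast, smooth muscle, blood endothelial and pancreatic acinar markers gave 0 calls among 5, 5, 6 and 2 tested, with 1, 0, 1 and 0 at an unadjusted p under 0.05 (limma). The mean fibroblast level was 9.17 to 10.36 log2 in KO and 9.28 to 10.39 log2 in WT tumours. The smallest p-values of these lists were those of Dcn and Col1a1 (-0.74 and -0.53 log2), Des and Tagln (-0.08 and -0.10 log2), Vwf and Tek (-0.91 and -0.99 log2), and Cela1 and Clps (0.27 and 0.53 log2). Among epithelial markers they were those of Cdh1 and Cldn7 (0.34 and 0.29 log2). The part of these cells in the differences of Sox4, Klf5, Hnf4g and Apob was not tested.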

How the data were processed

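Per the labels' protocols, colon segments of 1 cm were cut into 14 µm sections, laser-dissected, extracted in 20 µL and 30 ng amplified for Affymetrix mouse arrays, 1 per tumour; the text speaks of pooling per mouse, but single tumours are listed. The authors deposited log2 values, which RMA produced per the submitters' processing notes (version not given in the sources used here). Of 45037 probe sets that are no control, 34945 had 1 gene symbol, 34741 of them updated through GRCm38.p6.

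The genotypes were set against each other with limma 3.58.1 (R 4.3.3, lmFit, eBayes and, for the mouse as a random block, statmod 1.5.0; consensus correlation 0.0777) over the 27001 probe sets above the filter, so a difference can depart slightly from that of the plain means. Benjamini-Hochberg adjusted p-values were called below 0.05. The fit was tested on simulated data. Precision is limited by how few arrays and mice there are. Lists took the probe set with the highest mean per gene. Named were all members, of each list the genes that passed (up to 4) or the 2 with the smallest p, and the 5 genes most like Prox1; other names are marked as chosen after their values were seen. Members and lists were chosen with earlier results of these data known.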

Additional observations from a re-analysis of the deposited data

Results flagged for a closer look

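Single tumours stood far from their group in 2 of the 58 sets of 5 values examined (29 probe sets in KO and in WT). Chance alone flags about 1 in 20 such groups. For Sox4, WT tumour 13 read 9.70 log2 at 1419156_at, above the 8.92 to 9.09 log2 of the other WT tumours. For Sox9, WT tumour 8 read 10.12 log2 at 1451538_at, under the 10.83 to 11.03 log2 of the other WT tumours. It is the only tumour of mouse 82, so tumour and mouse cannot be told apart.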

How the results depend on the processing

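Of the probe sets followed (49, named or members) under up to 28 alternatives, 1233 values kept their direction and side of the threshold, 37 lost the call, 22 gained it and 53 changed sign, all of these without a call. No paired analysis was possible because KO and WT tumours share no numbers and each mouse has 1 genotype. All probe sets called numbered 1547, of which 56.0% were higher in KO. This became 762 with 1 mean per mouse (49.9% higher), 43 in the lower number range alone, 998 with a filter at the 60th percentile, 868 with 1 probe set per gene, 740, 954 and 576 without mouse 04, 02 and 72, and 874 to 1754 without single tumours, lowest without KO tumour 6 (874) and WT tumour 1 (1021). Member probe sets called numbered 5. This became 2 in the lower range alone, 2 with 1 probe set per gene, 9 with array weights, 3, 3 and 1 without mouse 04, 02 and 72, 3 with the 3′ to 5′ covariate (chosen after seeing the data), and 3 to 6 without single tumours, lowest without KO tumour 6. Some of these fits used fewer samples or probe sets, and the cause of the changes was not tested.

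Signs turned as follows, in log2. With 1 mean per mouse, Cdx2 1422074_at was at 0.10 and Tagln at 0.036. With the number range as a covariate, Cdx2 1422074_at was at 0.42, Klf4 at 0.22 and 0.29 and Sox9 1424950_at at -0.18. In the upper range alone, Cdx2 1422074_at was at 0.93, Klf4 at 1.06 and 1.18, Sox9 at -0.47 and -0.15, Cela1 at -0.34 and Des at 0.059. In the lower range alone, Cdx2 1422075_at was at -0.21 and Clps at -0.45. With array weights, Cdx2 1422074_at was at 0.15 and Clps at -0.060. Cdx2 1422075_at was at -0.00063 without the mouse block, at -0.0074 with cyclic loess and at -0.26 with the 3′ to 5′ covariate, where Tagln was at 0.060. Without mouse 04, Cdx2 1422074_at was at 0.081 and Tagln at 0.19. Without mouse 02, Cdx2 1422075_at was at -0.28, Klf4 at 0.16 and 0.13, Sox9 1424950_at at -0.031, Clps at -0.21 and Pdpn at -0.11. Without mouse 72, Cdx2 1422074_at was at 0.45 and Tagln at 0.27. Without mouse 99, Cdx2 1422075_at was at -0.053. Without mouse 82, it was at -0.084, Klf4 at 0.073 and 0.12 and Sox9 1424950_at at -0.11. Without single tumours, Cdx2 ran from -0.39 to 0.46 at 1422075_at and -0.50 to 0.28 at 1422074_at, Klf4 from -0.43 to 0.073 and -0.45 to 0.12, Sox9 1424950_at from -0.11 to 0.24, Tagln from -0.26 to 0.077 and Clps from -0.20 to 1.03.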
